A study of Mus musculus with 14 samples.

Results

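Microglia are the resident macrophages of the brain, and 9 genes that mark them were described here across whole brains of male mouse fetuses: Csf1r, Trem2, Cx3cr1, P2ry12, Tmem119, Aif1, C1qa, C1qb and C1qc. The genes were found by symbol among the 41934 genes of the expression tables, and all 9 were listed at both ages. The fetuses were on a C57BL/6J background and were either wild type (Dio3+/+) or homozygous for an inactivating mutation of the type 3 deiodinase (Dio3-/-), the enzyme that clears thyroid hormones. At E13.5 (E gives the embryonic day) there were 4 Dio3+/+ and 2 Dio3-/- libraries, and at E18.5 there were 3 Dio3+/+ and 5 Dio3-/- libraries, each made from the brain of 1 fetus. The Dio3+/+ and Dio3-/- fetuses were littermates from matings of Dio3+/- mice. Dams were killed at E13.5 or E18.5, so the litters differ between the ages. The mutation is present in every cell of the Dio3-/- fetuses, and the libraries were sequenced in batches whose counts the authors adjusted to each other.

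The level analysed for each gene is the authors' mean normalized count of an age, in which the libraries of both genotypes are pooled. It has no error and no value for a single library, so the depth and the spread between fetuses are unknown, the levels are a description with no test, and the genotypes were not compared. Dio3 had a mean of 99.0 at E13.5 and 129 at E18.5 over both genotypes, which does not check the labels, since a pooled mean shows no genotype. Xist, the RNA of the inactive X chromosome of females, had means of 5249 and 2568 in these libraries labelled male, beside 1211 and 1304 for the Y-linked Ddx3y. A pooled mean does not show which libraries carried the Xist reads. The source of these reads and the sex of each library were not tested.

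Microglia arise from yolk sac macrophages that enter the neural tube early in gestation and then divide within the brain. Signaling through the receptor CSF1R keeps them alive, and the receptors CX3CR1 and P2RY12 let them sense neurons and damaged cells. They are also the main cells of the brain that make C1q, the complement protein that tags synapses and debris for removal.

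To set the ages side by side, each mean was divided by the summed mean of all genes at its age and is given per 1000000 counts (CPM). The authors normalized each age separately, so ratios between the ages were not tested. The 9 genes together made up 59.5 CPM at E13.5 and 81.2 CPM at E18.5. The median log2 ratio of E18.5 over E13.5 was 0.46 over the 8 of them with a mean of at least 10 at either age, while it was -0.06 over the 19461 genes with such a mean. Over all 9, Trem2 included, it was 0.34, or 0.12 with the means as deposited. A different number of microglia and a different amount of RNA per microglial cell cannot be told apart in whole brain RNA. The share of Dio3-/- libraries also differs between the ages, and a gene that differed by up to 2-fold between genotypes at either age would have its ratio moved by a factor of 0.516 to 1.95. A ratio past 2-fold, in either direction, was therefore the size counted.

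C1qa and C1qc were the members past 2-fold higher at E18.5, and none was past 2-fold lower. This is 2 of 9 genes, of which 8 had a mean of at least 10 at either age. Among all 19461 genes, 13.49% were past 2-fold higher and 7.62% past 2-fold lower. Both ratios lay close to the limit, at 2.05 for each gene, and ranged from 1.76 to 2.15 over 5 ways of scaling the ages to each other. The count was 0 with the means as deposited and 1 when scaled on protein-coding genes only. Of the members short of the limit, Tmem119 came nearest on the lower side, at a log2 ratio of -0.77, and C1qb on the higher side, at 0.65.

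**Figure D1:**
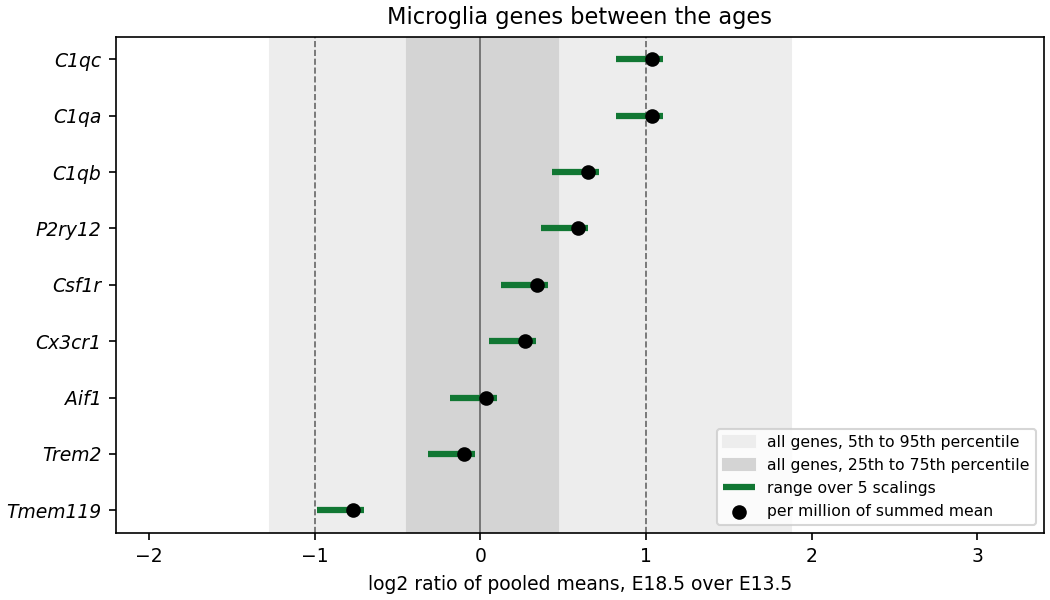
The log2 ratio of the pooled means, E18.5 over E13.5, is plotted on the horizontal axis for each microglia gene (points), with green bars for the range over 5 scalings, grey bands for all genes with a mean of at least 10, and dashed lines at 2-fold. C1qa and C1qc sit at 1.04, Tmem119 at -0.77 is the lowest, and the bar of Aif1 spans 0.

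Csf1r encodes the receptor for the growth factors CSF1 and IL-34, on which the survival of microglia depends. It lies on chromosome 18 of GRCm38 from 61100598 to 61132149 on the plus strand. Its mean was 620 at E13.5 and 675 at E18.5, the highest of the 9 genes at both ages and 36.5% and 33.8% of their summed mean. These means are 21.7 and 27.5 CPM, a log2 ratio of 0.34. Csf1r shares 873 of its 5774 exon bases, or 15.1%, with Hmgxb3 on the other strand, where reads counted without strand cannot be assigned to either gene. The exon length used for levels per kilobase includes these bases. Its ligands are made mainly by other cells. Csf1 had means of 319 and 395, with a log2 ratio of 0.53. Il34, a ligand made by neurons, had means of 25.5 and 77.6 and was past 2-fold higher at E18.5 (log2 ratio 1.82, from 1.61 to 1.89 over the scalings). The ratio of Il34 was thus larger than that of its receptor, a difference that was not tested. Il34 shares a small part of its exons with antisense genes.

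Trem2, a receptor for lipids and apolipoproteins, was the lowest member. Its means were 7.66 at E13.5 and 6.15 at E18.5, under the minimum of 10 at both ages, with a log2 ratio of -0.10. Trem2 lies on chromosome 17 from 48346401 to 48354147. No other annotated gene shares its exons. Tyrobp, the adaptor through which TREM2 signals, had means of 53.8 and 63.7 (log2 ratio 0.46). Syk, the kinase that the adaptor recruits, had means of 201 and 123 (log2 ratio -0.50). Apoe, a ligand of TREM2 that astrocytes make in quantity, had means of 1016 and 4677 and was past 2-fold higher at E18.5, at a ratio of 5.36. Of these genes Apoe was thus past the limit, Tyrobp and Syk were not, and Trem2 was too low to be counted. Whole brain means do not show which cells carried them.

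Cx3cr1, the receptor for fractalkine, was the member of the second highest mean count, at 315 at E13.5 and 326 at E18.5. Relative to Csf1r it was 50.8% at E13.5 and 48.3% at E18.5, so the counts of both receptors stood in nearly the same relation at both ages, a comparison within each table that needs no scaling. Its log2 ratio was 0.27. Cx3cr1 is annotated on chromosome 9 from 119901616 to 120069879, and its exons share 78 bases with a gene on the other strand. Fractalkine is encoded by Cx3cl1, which neurons express. Cx3cl1 had means of 430 and 1652, or 15.0 and 67.2 CPM, a ratio of 4.47 that ranged from 3.84 to 4.68 over the scalings. As with Il34, the neuronal ligand was past 2-fold higher and its microglial receptor was not.

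P2ry12 and Tmem119 are the genes most often used to tell microglia from other macrophages, and they had ratios in opposite directions. P2ry12, a receptor for ADP (chromosome 3 from 59216272 to 59262871, with 9 exon bases shared with Med12l), had means of 121 at E13.5 and 157 at E18.5. Tmem119, which encodes a membrane protein (chromosome 5 from 113793729 to 113800516, no shared exon bases), had means of 159 at E13.5 and 80.1 at E18.5. The log2 ratios were 0.59 for P2ry12 and -0.77 for Tmem119. Tmem119 was the member with the lowest ratio, from -0.99 to -0.71 over the scalings, which is short of 2-fold in each of them. The mean of P2ry12 was 0.763 times that of Tmem119 at E13.5 and 1.95 times at E18.5, a change of 2.56-fold that does not depend on the scaling. A genotype difference of up to 2-fold in each of 2 genes could move such a change by up to 3.78-fold. Entpd1, an enzyme that breaks down ATP and ADP and so removes the ligand of P2RY12, had means of 503 and 373 (log2 ratio -0.22).

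Tmem119 is also made by cells of the osteoblast lineage and by mesenchyme. The leptomeninges markers Col1a1, Col1a2, Dcn and Lum stood beside it, with 1 of 4 past 2-fold lower (2 with the means as deposited) and a summed level of 742 CPM at E13.5 and 442 at E18.5. Of all genes 7.62% were past 2-fold lower. Lum had means of 1069 and 218, while Dcn had means of 923 and 1036. The part of such cells in the Tmem119 ratio was not tested.

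Aif1 encodes IBA1, the calcium-binding protein whose antibody is the usual stain for microglia. Its means were 24.8 at E13.5 and 21.9 at E18.5, the second lowest of the members. The log2 ratio was 0.03, and its sign turned with the scaling, from -0.18 to 0.10. Aif1 lies on chromosome 17 from 35170991 to 35176068, with no exon bases shared with another gene.

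C1qa, C1qb and C1qc encode the chains of C1q, which assemble in equal amounts into one molecule. The genes are neighbours on chromosome 4 of GRCm38, all on the minus strand. C1qb runs from 136880129 to 136886187, C1qc from 136889804 to 136893065 and C1qa from 136895917 to 136898803. The gaps between them are 3616 and 2851 bases, and no exon bases are shared with another gene. C1qa had means of 125 at E13.5 and 220 at E18.5. C1qb had means of 162 and 219, and C1qc of 165 and 291. All means were higher at E18.5, also as deposited. The ratio of C1qa to C1qc was 0.756 at E13.5 and 0.755 at E18.5, so the relation of these genes was nearly the same at both ages, while the ratio between the ages was smaller for C1qb. The ratio of C1qa to C1qb was 0.771 at E13.5 and 1.01 at E18.5.

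The C1q genes together were 26.6% of the summed mean of the 9 genes at E13.5 and 36.6% at E18.5. Relative to Csf1r, C1qa was 20.1% at E13.5 and 32.6% at E18.5, a change of 1.62-fold within the tables, and C1qc went from 26.6% to 43.1%. C1qa over Tmem119 was 0.784 at E13.5 and 2.74 at E18.5, the change being 3.50-fold. Tmem119 had the lowest ratio of the members and C1qa was past 2-fold higher, so a large change of this pair follows from those ratios. It is short of the 3.78-fold by which a genotype difference of up to 2-fold in each gene could move it.

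The stretches before the start of C1qb, C1qc and P2ry12 are shown because these are the members whose RefSeq promoter window (250 bases before to 50 after the start, GRCm38.p6) holds GGAAGT on either strand, the core bound by ETS factors such as PU.1, the regulator that sets macrophage identity. Windows were matched for 6 of the 9 members, and 3 of these 6 hold GGAAGT, against 23.8% of all 32851 windows. The longer form GAGGAAGT, which contains GGAAGT, is in that of C1qc alone among the members and in 3.20% of all windows. AGGTCA, the motif that thyroid hormone receptors bind in pairs, is in 4 of the 6 (Aif1, C1qc, P2ry12 and Trem2) and in 16.3% of all windows. Such matches are a description of letters and not of sites in use. The stretches are given 5′ to 3′ on the minus strand, with GGAAGT or its reverse complement in capitals, at chr4:136886201-136886450, chr4:136893066-136893164 and chr3:59262986-59263235 in this order. For C1qb and P2ry12 all 250 bases before the RefSeq start are given. For C1qc only the first 99 of these are given, which end at the start of the gene in the GENCODE annotation, upstream of the RefSeq start.
C1qb: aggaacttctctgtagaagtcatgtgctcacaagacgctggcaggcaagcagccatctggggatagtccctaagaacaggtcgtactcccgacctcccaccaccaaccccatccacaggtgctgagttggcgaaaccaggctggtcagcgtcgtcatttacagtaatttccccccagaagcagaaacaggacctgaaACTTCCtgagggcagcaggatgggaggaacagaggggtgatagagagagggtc
C1qc: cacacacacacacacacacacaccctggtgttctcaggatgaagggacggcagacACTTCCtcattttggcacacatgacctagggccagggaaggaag
P2ry12: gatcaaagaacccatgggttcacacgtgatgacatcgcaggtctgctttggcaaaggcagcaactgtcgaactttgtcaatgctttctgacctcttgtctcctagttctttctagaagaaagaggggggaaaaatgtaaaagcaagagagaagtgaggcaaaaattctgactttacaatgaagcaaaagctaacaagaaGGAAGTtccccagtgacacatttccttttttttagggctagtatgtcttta

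In C1qb the match begins 53 bases before the RefSeq start, in C1qc 195 bases before it and in P2ry12 51 bases before it. Spi1, which encodes PU.1, had means of 47.1 at E13.5 and 44.5 at E18.5, and the sign of its log2 ratio of 0.14 turned with the scaling (from -0.08 to 0.20).

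Between genes, levels were compared per kilobase of exon (CPM divided by the length of all annotated exons). At E13.5 the order was C1qb (5.21), C1qa (4.20), Csf1r (3.76), C1qc (2.99), Cx3cr1 (2.45), Tmem119 (2.40), P2ry12 (1.67), Aif1 (0.567) and Trem2 (0.0542). At E18.5 it was C1qa (8.60), C1qb (8.18), C1qc (6.13), Csf1r (4.76), Cx3cr1 (2.95), P2ry12 (2.503), Tmem119 (1.41), Aif1 (0.581) and Trem2 (0.0506). The C1q genes thus held the top of the order at E18.5 on the scale per kilobase, where Csf1r led by count. With no spread over fetuses at hand, neighbours in the order were not tested, and Cx3cr1 and Tmem119 at E13.5 or C1qa and C1qb at E18.5 are close. The order depended on the length used. With the mean length of coding transcripts Csf1r came first at both ages, at 8.89 and 11.3. Trem2, whose exon length of 4946 bases includes a transcript of 4784 bases, was then at 0.250 and 0.234 and was still the lowest.

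Set among protein-coding genes with a mean of at least 10 (14741 at E13.5 and 14857 at E18.5), the members lay in the lower and middle part of the range when ranked per kilobase of all exons. On this scale C1qb was the highest at E13.5, above 49.3% of these genes, and C1qa was the highest at E18.5, above 64.4%. P2ry12 was above 25.3% at E13.5 and 31.9% at E18.5. Aif1 was above 13.3% at E13.5.

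**Figure D2:**
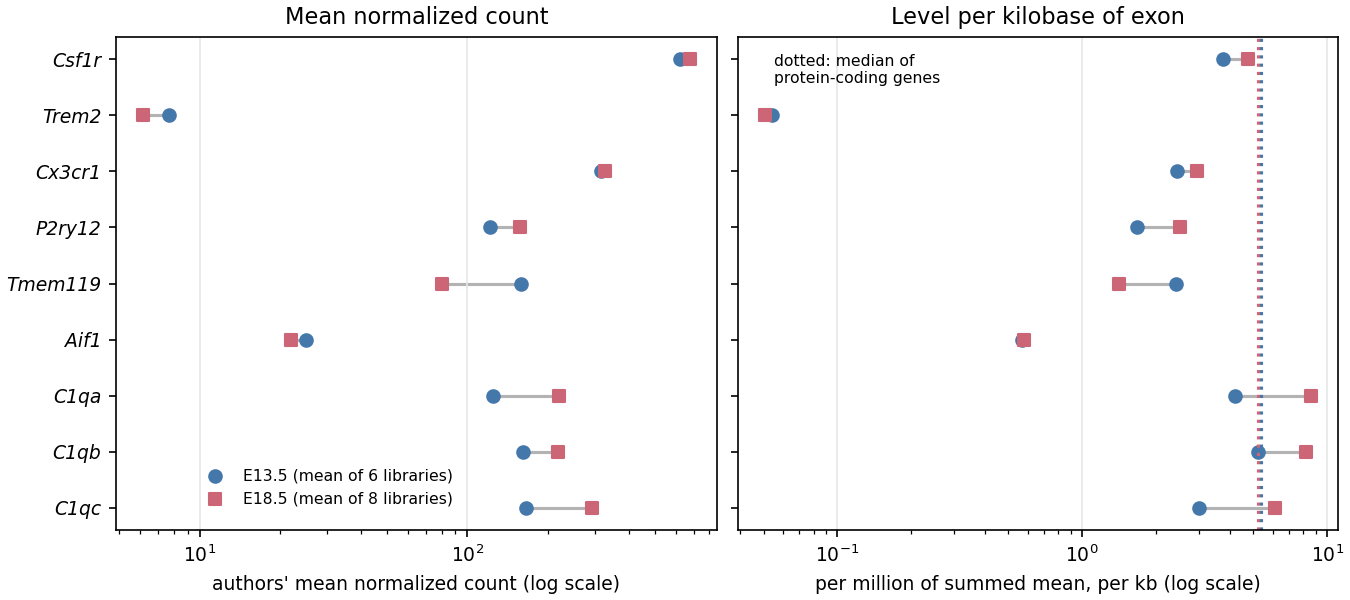
Levels of the 9 microglia genes at E13.5 (blue circles, mean of 6 libraries) and E18.5 (red squares, mean of 8 libraries) are plotted on log scales, as the authors' mean normalized count on the left and CPM per kilobase of exon on the right, with dotted lines at the median protein-coding gene of each age. Csf1r leads by count at 620 and 675, the C1q genes lie furthest right per kilobase at E18.5, and Trem2 is the lowest in both panels. No error bars are drawn, since the tables give a mean without a spread.

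Other genes that microglia are known to express were described as a list of 17. Of these 16 had a mean of at least 10 at either age, and their median log2 ratio was 0.52, against -0.06 over all genes. All 16 were above 0, or 13 with the means as deposited, beside 8936 of all 19461 genes with the scaled means. Past 2-fold higher was 1, beside 13.49% of all genes. This was P2ry13, an ADP receptor encoded next to P2ry12, with means of 35.1 and 60.9. It was short of 2-fold with the means as deposited (a ratio of 1.73) and when scaled on protein-coding genes. Selplg, which encodes a ligand of selectins, had means of 23.5 and 36.7 (log2 ratio 0.86). Fcrls had means of 209 and 289, and Gpr34 of 72.4 and 95.3. The lowest ratios were those of Slc2a5, a fructose transporter (56.1 and 49.9), and Laptm5, a lysosomal protein of blood cells (399 and 361), whose signs turned with the scaling. No gene of the signature had a ratio as low as that of Tmem119.

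Of the 8 transcription factors of microglia and macrophages, none was past 2-fold higher and 2 were past 2-fold lower, beside 13.49% and 7.62% of all genes. Runx1, which acts in early blood and yolk sac macrophages, had means of 255 and 78.9 (log2 ratio -1.47). Sall1, a factor that microglia share with neural progenitors, had means of 2740 and 1034 (log2 ratio -1.19). Ikzf1 had the highest ratio, with means of 169 and 272 (log2 ratio 0.90). Irf8, which acts with PU.1, had means of 70.1 and 58.6, and the sign of its ratio turned with the scaling. Maf had means of 1995 and 2253, and Cebpa of 45.4 and 58.4, both short of 2-fold. The median log2 ratio of the list was 0.16.

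Among 19 ligands and partners of the members, 17 had a mean of at least 10 at either age. Of these 5 were past 2-fold higher and none was past 2-fold lower, and the median log2 ratio was 0.40. Over all 19461 genes 13.49% were past 2-fold higher and 7.62% past 2-fold lower. With the means as deposited, 4 were past 2-fold higher, without C1s1, and Tgfbr1 was past 2-fold lower, as it also was when scaled on protein-coding genes. Besides Il34, Cx3cl1 and Apoe the genes past 2-fold higher were C1s1 and C4b, of the classical complement pathway that C1q starts. C1s1 and C4b reached the minimum mean of 10 only at E18.5, where they are higher. Their calls and their part in the median are thus no support for a change of the list. C1s1 had means of 5.80 and 11.5. C4b, the complement component that the C1 proteases cleave, had means of 0.713 and 19.1, and reads of its close paralog C4a could be split between the copies. The proteases that bind C1q were low, with C1ra at 3.67 and 6.12 and C1s2 at 5.67 and 6.81, against 125 to 291 for the C1q chains. C3, the next component, had means of 38.9 and 52.2 (log2 ratio 0.64). Itgb2, a chain of the complement receptor CR3, had means of 22.3 and 25.3, and C3ar1, the receptor for the fragment C3a, had means of 119.9 and 129.5. C2 had means of 27.7 and 30.8. Serping1, the inhibitor of the C1 proteases, had means of 413 and 351, and the sign of its ratio turned with the scaling.

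Transforming growth factor beta is a signal that microglia need to mature. Tgfb1 had means of 284 and 211 (log2 ratio -0.21), and Nrros, which presents it on microglia, had means of 142 and 115. Tgfbr1, a receptor found on many cells of the brain, had means of 7857 and 3406, at a log2 ratio of -0.99 that lay between -1.21 and -0.92 over the scalings.

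Border macrophages of the meninges, choroid plexus and vessels share Csf1r, Aif1 and the C1q genes with microglia. Of 10 markers of these cells, 9 had a mean of at least 10 at either age, 2 of them were past 2-fold higher and none past 2-fold lower, with a median log2 ratio of 0.48. The shares of all genes were 13.49% higher and 7.62% lower. The summed level of the 10 was 158 CPM at E13.5 and 156 at E18.5. Its largest parts were Dab2 (59.8 and 51.2 CPM), Stab1 (53.4 and 35.6 CPM) and Mrc1 (22.6 and 31.5 CPM). The sum thus rests mainly on a few genes, and whole brain means do not show which cells carried them. Cd163, a hemoglobin scavenger receptor, had means of 5.60 and 69.8, a ratio of 14.5. Cbr2 had means of 3.29 and 47.7. Both reached the minimum mean of 10 only at E18.5, the age at which they are high. The count of 2 and their part in the median are thus no support for a change of the list. Mrc1, the mannose receptor, had means of 647 and 775, and Pf4 of 77.1 and 57.1. The lowest ratios were those of the scavenger receptor Stab1 (1525 and 875) and of Dab2 (1710 and 1257). By count, Mrc1 was thus above Csf1r at both ages. Per kilobase of exon this order was reversed at the earlier age, where Mrc1 stood at 3.55 and Csf1r at 3.76. At E18.5 the values per kilobase were 4.95 for Mrc1 and 4.76 for Csf1r. These differences were not tested, nor was the part of border macrophages in the C1q ratios.

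Monocyte and neutrophil markers were low at both ages, with 4 of 10 reaching a mean of 10 at either age. None of these 4 was past 2-fold in either direction, beside 13.49% of all genes higher and 7.62% lower. With the means as deposited 1 was past 2-fold lower, beside 11.6% of all genes. All 4 reached a mean of 10 only at E13.5, the age at which they are higher. Their ratios are thus no support for a change of the list. The highest of the 10 means was 12.7 at E13.5, for Ccr2, and 9.01 at E18.5, for Ngp. Ly6g was at 0.15 at E13.5 and listed at 0 at E18.5, and Ly6c2 was at 0.82 and 1.85. The summed level of the list was 2.18 CPM at E13.5 and 1.81 at E18.5, beside 59.5 and 81.2 for the 9 microglia genes.

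**Figure D3:**
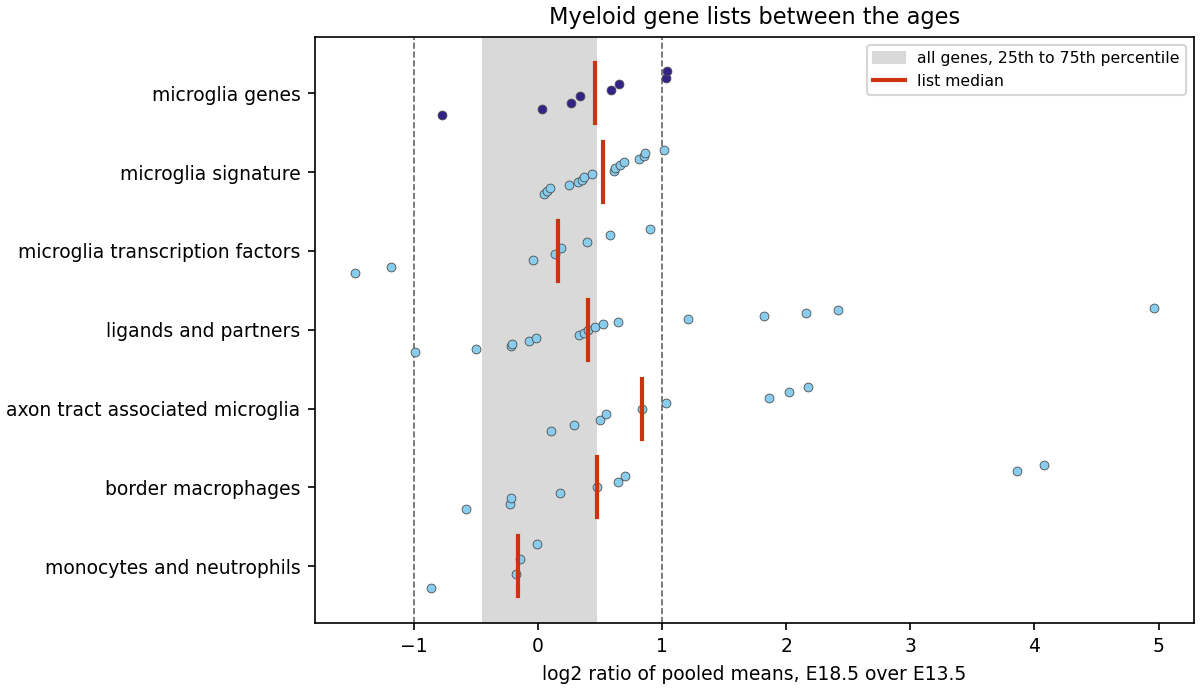
Each point is a gene with a mean of at least 10 at either age, placed by its log2 ratio of pooled means, E18.5 over E13.5, in 7 lists of myeloid genes. Red lines are list medians, the grey band holds the middle of all genes and dashed lines mark 2-fold. The microglia genes and the microglia signature have medians of 0.46 (8 genes) and 0.52. The points furthest right are C4b among the ligands and partners and Cbr2 and Cd163 among the border macrophages. C4b, Cbr2 and Cd163 reached a mean of 10 only at E18.5, and the monocyte and neutrophil genes only at E13.5. These points and their part in the medians are no support for a change of a list.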

How the data were processed

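RNA of whole brains from 14 male fetuses was sequenced after removal of ribosomal RNA. The authors trimmed the reads with cutadapt 3.1 and aligned them to GRCm38 with STAR 2.5.3a and GENCODE VM22. They removed ribosomal and transfer RNA with bedtools 2.26.0 and counted the reads by HTSeq (union setting, strand ignored). Batches were then adjusted by ComBat-seq, and the authors ran DESeq2 1.30.1 within each age. The deposited mean normalized count is a signal averaged by the authors over all libraries of an age after division by size factors. It was the only column used. The other numeric columns hold the authors' comparison of the genotypes (fold changes, standard errors, statistics and p-values), which was not used. The labels do not say which library was in which batch, and the batches cannot be told apart in a pooled mean.

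Means were scaled to the summed mean of all genes at each age, and ratios between the ages were computed with pandas 2.3.3 (Python 3.11.15), and the calculation was checked on simulated data. Alternatives were scaling on protein-coding genes, by the median ratio or by a trimmed mean of log2 ratios (30% of ratios and 5% of levels trimmed at each end), no scaling, other minimum means, a fold of 4 and other gene lengths. Coordinates, exon lengths and overlaps came from GENCODE M21 of GRCm38, one release older than that of the authors. Of the genes, 41897 were matched by identifier and 37 were not. Promoter sequences are those of RefSeq for GRCm38.p6. All 9 members are named, with the genes that act on them directly and, of other lists, mainly the highest and lowest ratios. Fcrls, Gpr34, Mrc1, Pf4, Lgals3, Igf1 and Itgax, and the genes of the brain cell lists, were named after their values were seen. The members and lists were chosen with earlier results of these data known. Some genes of the lists are not reported here.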

Additional observations from a re-analysis of the deposited data

How the results depend on the processing

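The number of the 9 genes past 2-fold higher at E18.5 was 2, and became 1 when scaled on protein-coding genes only, 0 with the means as deposited and 0 with a fold of 4. Aif1 turned from a log2 ratio of 0.03 to -0.00258 when scaled on protein-coding genes and to -0.18 with the means as deposited. With the longest transcript as length, 4 genes at E13.5 and 3 at E18.5 stood at another rank per kilobase, and with the mean length of coding transcripts 6 and 4 did. The share of all genes past 2-fold lower was 11.6% with the means as deposited. The median log2 ratio of all genes with the means as deposited was -0.28, a shift of -0.22 against the scaled means. With a fold of 4, 4.30% of all genes were higher and 1.51% lower. The median log2 ratio of the 9 genes ranged from 0.12 with the means as deposited to 0.41 by the median ratio. Of the recomputed values not given here as moved, 15 on the members as a group and 45 on single genes and on all genes moved by less than 1.5 times, where log2 ratios were compared as linear ratios, and the log2 ratios kept their sign. Leaving out a library was not run, since only pooled means were used. No paired analysis was possible because the result comes from no test. The depth of the libraries, which sets the precision of Trem2 and Aif1, is unknown.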

Other observations

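A list of 10 genes of the axon tract associated microglia that appear around birth held 9 with a mean of at least 10 at either age. All 9 had a log2 ratio above 0 (8 with the means as deposited), with a median of 0.84, and 4 were past 2-fold higher. Over all 19461 genes 8936 were above 0 and 13.49% were past 2-fold higher. Spp1, which encodes osteopontin, had means of 36.6 at E13.5 and 143 at E18.5 (log2 ratio 2.18). Gpnmb had means of 4.32 and 15.1 and Lgals3 of 8.80 and 27.5. Both reached the minimum mean of 10 only at E18.5, the age at which they are high. Their calls and their part in the median are thus no support for a change of the list. Igf1 had means of 656 and 1151, a log2 ratio of 1.03 that was short of 2-fold with the means as deposited (0.81) and when scaled on protein-coding genes. The lowest ratios were those of Clec7a, a defining gene of this state (10.5 and 9.74), and of Cd63 (589 and 620). Itgax had means of 5.64 and 7.51. Many cells of the brain make Igf1, Cd63, Fabp5 and Ctsb, so that the list is not specific to microglia in whole brain RNA.

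Markers of neurons, of radial glia and astrocytes and of the oligodendrocyte lineage all had a mean of at least 10 at both ages, except Gfap at E13.5. Whole brain means do not show which cells carried them. The counts below stand beside 13.49% of all genes past 2-fold higher and 7.62% past 2-fold lower. Of 4 neuronal markers 1 was past 2-fold higher at E18.5, Snap25, a protein of synaptic vesicle release (2107 and 5543), and 2 were with Rbfox3 when scaled by the median ratio or the trimmed mean. Of 4 markers of radial glia and astrocytes 3 were past 2-fold higher, among them Gfap, the intermediate filament of astrocytes (4.71 and 501), which reached the minimum mean only at E18.5. With the means as deposited 2 were, without Slc1a3. Of 4 markers of the oligodendrocyte lineage 2 were past 2-fold higher, Olig1 (178 and 1974) and Sox10 (142 and 294), and all 4 were, with Olig2 and Pdgfra, when scaled by the median ratio or the trimmed mean. The 4 endothelial markers summed to 213 CPM at E13.5 and 226 CPM at E18.5, with none past 2-fold. Of 4 erythroid genes 3 were past 2-fold lower, and their summed level was 171 CPM at E13.5 and 69.1 CPM at E18.5. The globin genes among them have near-identical copies, and their counts are uncertain.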
